A study of Mus musculus with 3 samples.

Results

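Monocytes are leukocytes that leave the bone marrow, circulate in the blood and enter tissues, where some become macrophages or dendritic-like cells. In the mouse, classical monocytes carry Ly6c2 and the chemokine receptor Ccr2, whereas patrolling monocytes crawl along vessel walls and depend on Nr4a1. Dendritic cells carry antigen to T cells on major histocompatibility complex (MHC) class II molecules, and the conventional type 1 (DC1) and type 2 (DC2) subsets differ in the transcription factors they need (Batf3 and Irf8 for DC1, Irf4 among others for DC2). In the heart these cells lie beside a larger population of resident macrophages.

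A total of 118 monocytes and Cd209a-expressing dendritic-like cells were found among 6915 non-cardiomyocytes from mouse ventricles. The cells came from wild-type C57BL/6JJcl mice in 3 phases of pressure overload by transverse aortic constriction (TAC), a ligature that narrows the aortic arch. The phases were the healthy heart (0 weeks, labelled control), adaptive hypertrophy (TAC for 2 weeks) and heart failure (TAC for 12 weeks). The methods give TAC in males at 8 weeks of age, so age at sampling differs with phase. The ventricles were digested with collagenase and DNase I, red cells were lysed, and the suspension was filtered and spun on Percoll. The measurement was single-cell RNA sequencing of 3' ends, with molecules counted as unique molecular identifiers (UMIs). Each phase was 1 library, and how many mice entered it is not given in the sources used here. Phase, library and animal therefore cannot be told apart, no test between phases was possible, and every interval below is a 95% interval for counting error only.

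Members were selected on their own UMI counts. A cell first had to have at least 200 genes and to pass as a leukocyte, with at least 3 UMIs of Tyrobp, Fcer1g and Ptprc, and with more than 2 times as many of these as of each endothelial, fibroblast and mural sum. It then needed at least 2 UMIs of Plac8, Cd209a, Napsa and Ly6c2 together. Cells with over 4 UMIs of the complement genes C1qa, C1qb and C1qc, over 10 UMIs of S100a8 and S100a9, or any UMI of Cd79a, Ms4a1, Cd3e or Cd3g were left out, to set aside macrophages, neutrophils, B cells and T cells. These genes chose the cells, so their levels are a description. The bound on S100a8 and S100a9 was exceeded by 3 of 895 leukocytes at 0 weeks, 6 of 164 at 2 weeks and 13 of 74 at 12 weeks. Whether monocytes were among those cells was not tested. Of the 118 members, 102 had no C1q UMI and 89 had no UMI of the endothelial, fibroblast and mural genes. The libraries held 3900, 2239 and 802 barcodes, and few barcodes were shared between libraries (5 at most in a pair, none of them a member). The median member held 3236 UMIs at 0 weeks, 2791.5 at 2 weeks and 4682 at 12 weeks, so the depth behind a cell was similar at 0 and 2 weeks and higher at 12 weeks.

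At the edge of the rule, 26 leukocytes with a marker sum of 1 UMI stayed outside and 16 with a sum of 2 were let in. The just-excluded cells held Lyz2, the lysozyme of myeloid cells, at 9314 CPM (its UMIs for every 1000000 UMIs of the same cells), the just-included ones at 4151 CPM and the rest of the members at 14327 CPM. Cd74, the chaperone of MHC class II, stood at 23572, 26177 and 21984 CPM in the same 3 sets. Cst3, a protease inhibitor abundant in dendritic cells, stood at 13000, 15914 and 7896 CPM. The just-included cells thus held less Lyz2 and more Cst3 than the other members, with the excluded cells between them on both genes. The excluded cells were also shallower (median of 1438 UMIs against 2239 and 3444).

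Members made up 57 of 3892 cells at 0 weeks, 1.46% (exact Clopper-Pearson interval 1.11 to 1.89). At 2 weeks they were 48 of 2231 cells, 2.15% (1.59 to 2.84), and at 12 weeks 13 of 792 cells, 1.64% (0.877 to 2.79). The 3 intervals overlapped, although the 0-week and the 2-week share each lay outside the interval of the other. As a share of leukocytes, members were 57 of 895 at 0 weeks, 6.37% (4.86 to 8.17), 48 of 164 at 2 weeks, 29.3% (22.4 to 36.9), and 13 of 74 at 12 weeks, 17.6% (9.70 to 28.2). On this denominator the interval at 0 weeks lay below those of both TAC libraries. Macrophages, the largest group in this denominator at 0 weeks, numbered 812 there, 75 at 2 weeks and 30 at 12 weeks.

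**Figure D1:**
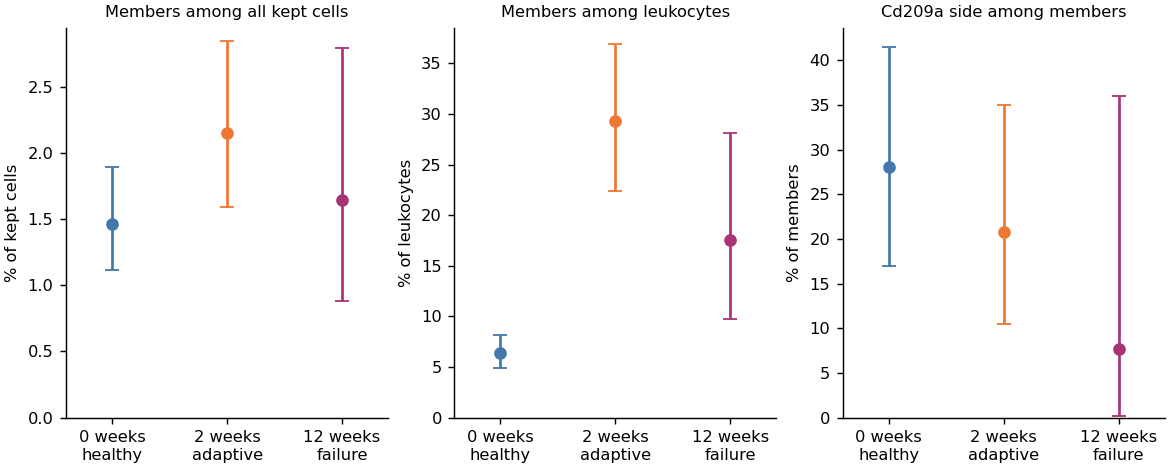
Members as a percent of all kept cells, members as a percent of leukocytes, and Cd209a side cells as a percent of members, by weeks of TAC, with 1 library at each time. Points are the shares and bars the exact 95% binomial intervals; the share of leukocytes goes from 6.37% to 29.3% and 17.6%, whereas the intervals of the other 2 shares overlap.

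The 4 defining genes, on which members were chosen, and Ear2 stood higher in members than in endothelial cells. Cd209a, a C-type lectin receptor (chr8:3743397-3748984, minus strand, GRCm38), stood at 1133 CPM at 0 weeks, 528 CPM at 2 weeks and 46.2 CPM at 12 weeks, the last from a single cell. Plac8, a cysteine-rich protein of myeloid cells (chr5:100553725-100572245, minus strand), stood at 1000.4, 2886 and 1755 CPM. Napsa, an aspartic protease (chr7:44572380-44586862, plus strand), was the most even across the libraries at 555, 648 and 508 CPM. Ly6c2, the surface antigen of classical monocytes (chr15:75108158-75111970, minus strand), stood at 176, 443 and 477 CPM, and Ear2, a ribonuclease (chr14:44102654-44103534, plus strand), at 150, 120 and 169 CPM. Endothelial cells served as a guide to free RNA, although their level may include transcripts of their own. They held 5.06 CPM of Plac8, 9.52 CPM of Ly6c2, 1.34 CPM of Napsa and 0.298 CPM of Cd209a over the 3 libraries, and no Ear2 UMI. Of 415 Cd209a UMIs in all cells, 335 were in members and 69 were in 6 macrophages. Reads of near-identical genes could not all be told apart: 34.9% of the 50-base words in the last 400 bases of the Ly6c2 transcripts were also in Ly6c1, an endothelial gene, and 27.4% of those of Ear2 were in Ear1, whereas Cd209a shared none with Cd209b, Cd209c or Cd209d.

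Each member was placed by these same genes. A cell with more Cd209a UMIs than Plac8, Ly6c2 and Ear2 UMIs together was put on the Cd209a side, and a cell with fewer on the monocyte side. The Cd209a side held 16 cells at 0 weeks, 10 at 2 weeks and 1 at 12 weeks, and the monocyte side 36, 36 and 9. A further 5, 2 and 3 cells were tied. The Cd209a side was 28.1% of members at 0 weeks (17.0 to 41.5), 20.8% at 2 weeks (10.5 to 35.0) and 7.69% at 12 weeks (0.195 to 36.0), and these intervals overlapped. Within the monocyte side, 31 cells had more Ly6c2 than Ear2 UMIs (9, 17 and 5, called Ly6c2 cells here), 18 had more Ear2 (10, 6 and 2, Ear2 cells) and 32 had neither in excess. Cells on the Cd209a side were deeper, with a median of 4978 UMIs against 2574 on the monocyte side.

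The label did not cover all members. A group of 12 cells (9 at 0 weeks, 1 at 2 weeks, 2 at 12 weeks) held 8 to 66 UMIs of a 10-gene conventional DC1 list, against at most 6 in any other member. The bound of 8 UMIs was set after the values were seen. All 10 UMIs of Xcr1, the chemokine receptor of DC1, and all 10 of Clec9a, their receptor for dead cells, lay in these cells, which had no Cd209a UMI. They held Irf8 at 661 CPM, against 45.4 CPM on the Cd209a side and 73.9 CPM in the other monocyte-side cells. Xcr1, Clec9a and Irf8 belong to the list that picked these cells, so their levels here are a description. Cst3, which is not in the list, stood at 26178 CPM in the 12 cells, against 6186 and 3538 CPM. Of these cells, 8 fell on the monocyte side and 4 on no side, so they are called DC1-list cells, and the monocyte side is also described without them. That leaves 29, 35 and 9 monocyte-side cells at 0, 2 and 12 weeks.

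The 2 sides differed in Lyz2 and MHC class II, neither of which the rule used, although the cells were sorted by other genes of the same libraries. Among the 27 cells of the Cd209a side, Lyz2 ranged from 0 to 68.8 UMIs per 10000 with a median of 4.92. The Ly6c2 cells had a median of 284 and a range of 0 to 684, and the Ear2 cells outside the DC1-list cells a median of 108 and a range of 39.2 to 369. The summed MHC class II list ran the other way. It ranged from 601 to 1501 UMIs per 10000 on the Cd209a side with a median of 918, from 347 to 954 in the DC1-list cells with a median of 647, and from 0 to 226 in the Ly6c2 cells with a median of 14.4. Every cell of the Cd209a side was above every monocyte-side cell outside the DC1-list cells, of which the highest was at 575. The 6 tied cells outside the DC1-list cells ranged from 474 to 1410. Of these, the lowest pair (474 and 515) lay below the Cd209a side, and the cell at 515 had Lyz2 at 234, above the highest cell of that side.

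**Figure D2:**
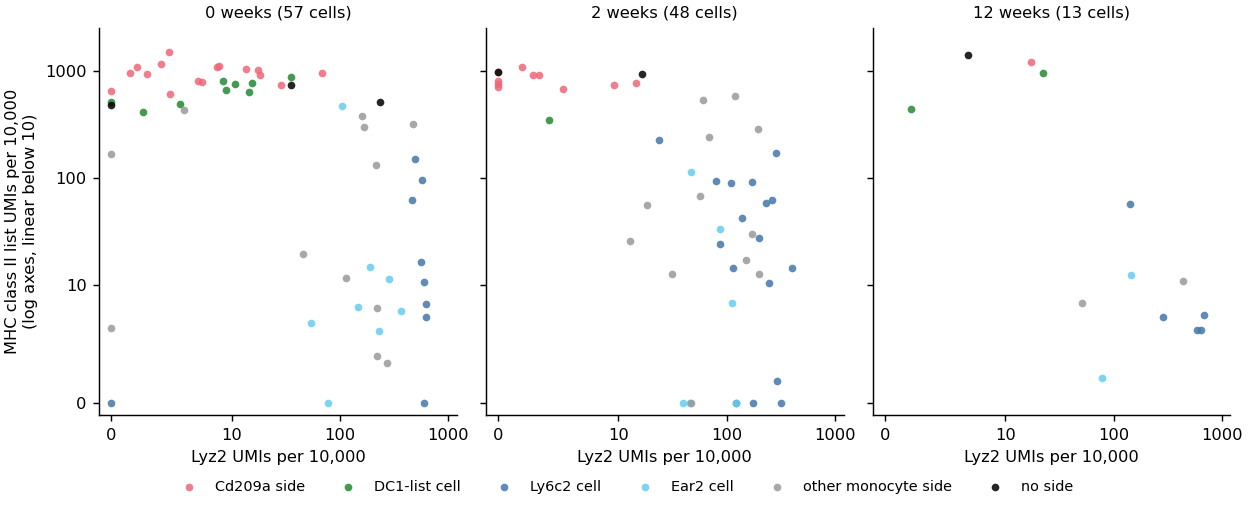
Each point is 1 member, placed by its Lyz2 UMIs per 10000 (x axis) and its summed MHC class II list UMIs per 10000 (y axis), both log axes that are linear below 10, with a panel for each library and colours for the subsets. Cd209a side cells and DC1-list cells sit at the upper left of each panel and Ly6c2 cells, most of them to the right, sit below.

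Over the 3 libraries, 165 of 2195 genes were at least 2-fold higher on the Cd209a side than on the monocyte side (7.52%) and 338 were at least 2-fold lower (15.4%). These counts cover genes with 20 or more UMIs over the sides, after adding 10 CPM to both levels. The median log2 ratio of all these genes was -0.18. All 9 MHC class II genes counted were at least 2-fold higher, with a median of 2.50 on the log2 scale. H2-Aa, the alpha chain of I-A, was 5.69 times higher (5.22 to 6.21), H2-Eb1, the beta chain of I-E, 7.35 times (6.61 to 8.18) and Cd74 5.71 times (5.42 to 6.01). Without the DC1-list cells, where 152 of 1979 genes were at least 2-fold higher and 371 lower, the direction was the same and the gap wider. The median over 8 genes was then 4.01, with H2-Aa at 17.0 times (14.6 to 19.9), H2-Eb1 at 27.2 times (22.1 to 33.8) and Cd74 at 12.4 times (11.4 to 13.4). Within the 0-week library, where 8.51% of genes were called higher, all 8 were higher, with H2-Aa at 12.6 times (10.1 to 15.9), and within the 2-week library, where 8.95% were, all 7 were, with H2-Aa at 13.5 times (10.9 to 16.8). The ratio for H2-Aa was thus alike in both libraries.

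MHC class II genes are switched on together through short promoter boxes, the last of which is a CCAAT motif (the Y box). The letters TGATTGG, or CCAATCA on the other strand, were sought within 250 bases before the start of each entry in the RefSeq promoter table (GRCm38.p6). They lay there in 6 of the 7 H2 genes of the list that the table holds, against 2375 of 32851 promoters in the table (7.23%). H2-DMa was the gene without them and H2-Ab1 was not in the table. A gene with several entries was scored by one with the motif where it had one, whereas 7.23% counts every entry, so these shares are not alike. The 6 windows are shown because the genes belong to the MHC class II list, of which all 9 counted genes were at least 2-fold higher on the Cd209a side. Each window runs 5′ to 3′ on the gene's strand with the motif in capitals. They cover chr17:34287834-34287923 for H2-Aa (minus strand), chr17:34305756-34305845 for H2-Eb1, chr17:34153078-34153167 for H2-DMb1, chr17:34145107-34145196 for H2-DMb2, chr17:34092284-34092373 for H2-Oa and chr17:34238796-34238885 for H2-Ob (plus strand). The motif began between 45 and 92 bases before the start of the RefSeq entry used, which need not be the start of the gene in GENCODE M21. There, H2-DMb1 starts at chr17:34153072 and H2-DMb2 at chr17:34143307, so both windows lie inside the gene. The H2-Oa window spans its gene start at chr17:34092340. These letters are a match and not a measured binding site.
H2-Aa: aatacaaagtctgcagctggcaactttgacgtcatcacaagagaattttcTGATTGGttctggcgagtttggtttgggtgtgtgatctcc
H2-Eb1: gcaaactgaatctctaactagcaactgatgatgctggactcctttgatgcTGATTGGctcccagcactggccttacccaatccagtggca
H2-DMb1: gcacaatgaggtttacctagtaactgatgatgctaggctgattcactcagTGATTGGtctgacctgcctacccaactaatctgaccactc
H2-DMb2: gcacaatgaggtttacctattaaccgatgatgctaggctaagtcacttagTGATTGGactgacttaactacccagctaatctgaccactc
H2-Oa: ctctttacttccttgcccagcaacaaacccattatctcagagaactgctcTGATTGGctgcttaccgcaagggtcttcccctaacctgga
H2-Ob: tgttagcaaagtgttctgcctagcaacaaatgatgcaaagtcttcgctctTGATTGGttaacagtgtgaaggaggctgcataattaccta

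Among the genes with a motif, H2-DMb2, whose product helps to load peptide on MHC class II, stood at 517 CPM at 0 weeks, 1052 CPM at 2 weeks and 870 CPM at 12 weeks on the Cd209a side. On the monocyte side without DC1-list cells it had 1 UMI in all, and in macrophages it stood at 8.85 CPM, although macrophages held Cd74 at 19798 CPM at 0 weeks. Cd74 was 46639 CPM on the Cd209a side and 4649 CPM on the monocyte side without DC1-list cells in the same library. Macrophages thus lay between the sides for Cd74 but near the monocyte side for H2-DMb2.

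Genes of conventional DC2 were higher on the Cd209a side. Of the 14 genes of the DC2 list, 5 could be counted, of which 4 were at least 2-fold higher and none lower (median log2 of 2.94), against 7.52% of all genes higher. Without the DC1-list cells all 4 that could be counted were higher (3.50), against 7.68% of all genes. H2-DMb2 is in both this list and the MHC class II list, so the 2 counts are not separate. Clec10a, a C-type lectin, was 23.8 times higher (8.72 to 90.6), with 299, 538 and 435 CPM at 0, 2 and 12 weeks. Klrd1, a lectin-like receptor, stood at 299 and 257 CPM at 0 and 2 weeks and had no UMI in the 1 cell at 12 weeks. Zbtb46, a transcription factor of conventional dendritic cells, had 7 UMIs in 6 cells of the Cd209a side and none on the monocyte side outside the DC1-list cells, and no fold is given. Irf4 had 9 UMIs against 1 and Flt3, the receptor for a growth factor of dendritic cells, 8 against 2. Mgl2, another lectin, had 111 UMIs in 20 of the 27 cells (1058, 397 and 870 CPM) and none on the monocyte side without the DC1-list cells. Macrophages held Mgl2 too, at 637, 183 and 740 CPM. Tnip3, an inhibitor of NF-kB signalling, was in 25 of the 27 cells (1173 and 1379 CPM at 0 and 2 weeks), 19.1 times the monocyte side (11.4 to 34.3) and 15.5 times that side without the DC1-list cells (9.23 to 27.7). Slamf9, a receptor of the SLAM family, was 29.5 times higher (7.50 to 254), Clec4b1, another lectin, 21.5 times (6.78 to 110) and Il1r2, the decoy receptor of interleukin 1, 15.2 times (6.50 to 43.5). Without the DC1-list cells these ratios were 47.6 (Slamf9, against 1 UMI), 17.4 and 14.7. In macrophages Slamf9 stood at 190 CPM and Il1r2 at 3.46 CPM, so only the latter was near 0 there. Il1b, the inflammatory cytokine, was abundant on both sides, at 6042 CPM against 3681 CPM without the DC1-list cells.

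A small set of Cd209a side cells held the genes of migratory dendritic cells. All 4 counted genes of the 8-gene list were at least 2-fold higher on the Cd209a side, but 194 of its 212 UMIs of that list were in 5 cells, 4 at 0 weeks and 1 at 2 weeks. Ccl17, a chemokine for T cells, had 108 UMIs in 4 cells at 0 weeks and 17 in 1 cell at 2 weeks. Ccl22, which binds the same receptor, had 38 UMIs in 5 cells of the side, and Ccr7, the receptor that guides dendritic cells to lymph nodes, 28 UMIs in 5 cells. A pooled level of these genes therefore describes 5 cells and not the 27.

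In contrast, monocyte genes were lower on the Cd209a side. All 12 counted classical monocyte genes and 12 of 13 patrolling monocyte genes were at least 2-fold lower there (median log2 of -3.65 and -3.33), and the counts were the same without the DC1-list cells (-3.92 and -3.63). Summed, the classical list stood at 1211 CPM and the patrolling list at 1037 CPM on the Cd209a side, against 30557 and 7944 CPM on the monocyte side without the DC1-list cells. The patrolling gene that did not pass 2-fold was Nr4a1, with a ratio of 0.864 (0.617 to 1.20). Lyz2 stood at 1184, 444 and 1739 CPM, against 32135, 16815 and 38609 CPM on the monocyte side without the DC1-list cells. Chil3, a chitinase-like protein, Hp, the haemoglobin carrier haptoglobin, Itgal, the alpha chain of the integrin LFA-1, and Thbs1, the matrix protein thrombospondin 1, had no UMI in any of the 27 cells, which puts Chil3 at least 27.5-fold and Thbs1 at least 34.9-fold lower (from a floor of 3 UMIs over the side). Apoe, a lipid carrier, had 12 UMIs against 609. Cebpb, a transcription factor that patrolling monocytes need, had a ratio of 0.0969 (0.0687 to 0.133), Hmox1, which breaks down haem, 0.0444 (0.0228 to 0.0782) and Msrb1, which repairs oxidised methionine, 0.0207 (0.00248 to 0.0757). Gsr, glutathione reductase, had 1 UMI against 108. Ccr2 stood at 57.5 and 93.5 CPM on the Cd209a side, against 255 and 191 CPM on the monocyte side without DC1-list cells at 0 and 2 weeks.

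**Figure D3:**
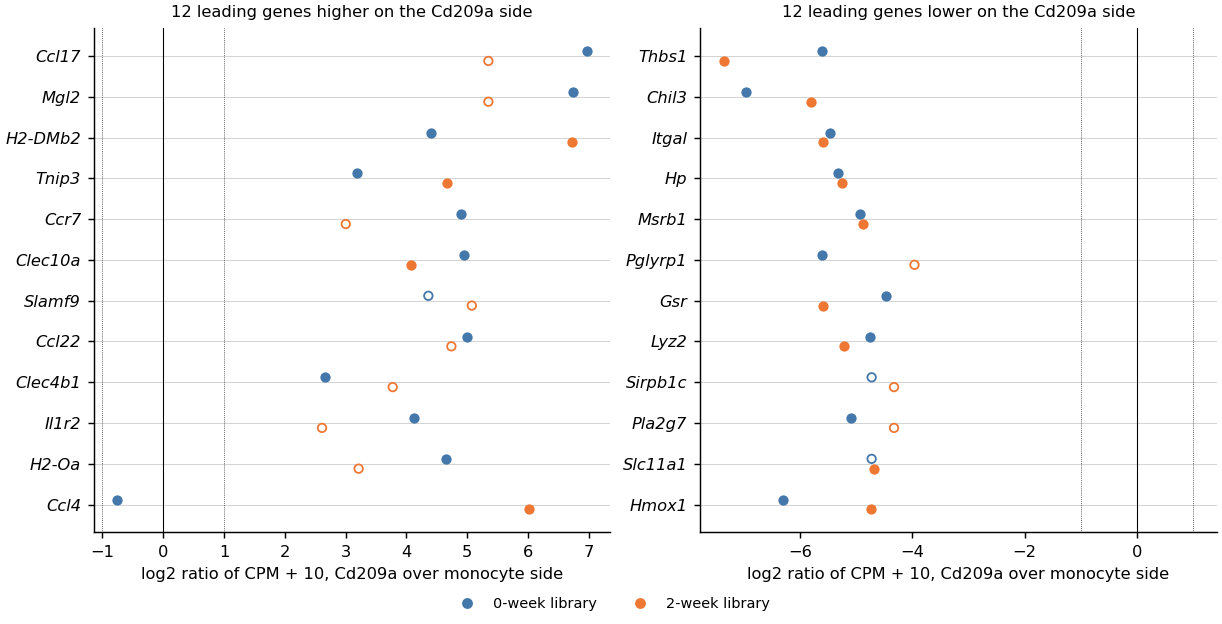
The log2 ratio of CPM + 10 between the Cd209a side and the monocyte side without DC1-list cells, for the 12 leading genes each way over all libraries, with a point for each of the 0-week and 2-week libraries. Open points are genes with under 20 UMIs in that comparison, dotted lines mark 2-fold; the points of both libraries lie on the same side of 0 for every gene shown except Ccl4.

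Set against Ly6c2 cells, Ear2 cells were higher in most counted patrolling genes and lower in most counted classical ones. The 26 monocyte-side cells of neither set were not part of this comparison. Their summed patrolling list ranged from 0 to 267 UMIs per 10000, against 37.4 to 214 in Ear2 cells outside the DC1-list cells. The patrolling list was thus not particular to Ear2 cells. Without the DC1-list cells, 63 of 1009 genes were at least 2-fold higher in the 16 Ear2 cells than in the 31 Ly6c2 cells (6.24%) and 134 were at least 2-fold lower (13.3%). Of 10 counted patrolling genes, 8 were higher and none lower, with a median of 1.89 on the log2 scale. Ace, angiotensin-converting enzyme, stood at 545 CPM against 99.7 CPM, Spn, the sialophorin CD43, at 312 CPM against 36.2 CPM, and Nr4a1, the nuclear receptor that patrolling monocytes need, at 1142 CPM against 263 CPM. Cd300e had 7 UMIs in 5 Ear2 cells and none in Ly6c2 cells. Of 12 counted classical genes, 7 were lower in Ear2 cells and 1 was higher. Ccr2 stood at 26.0 CPM against 426 CPM, Ms4a4c at 77.9 CPM against 535 CPM and Lyz2 at 13786 CPM against 36217 CPM. Genes outside the rule thus differed along the split by Ly6c2 and Ear2.

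**Figure D4:**
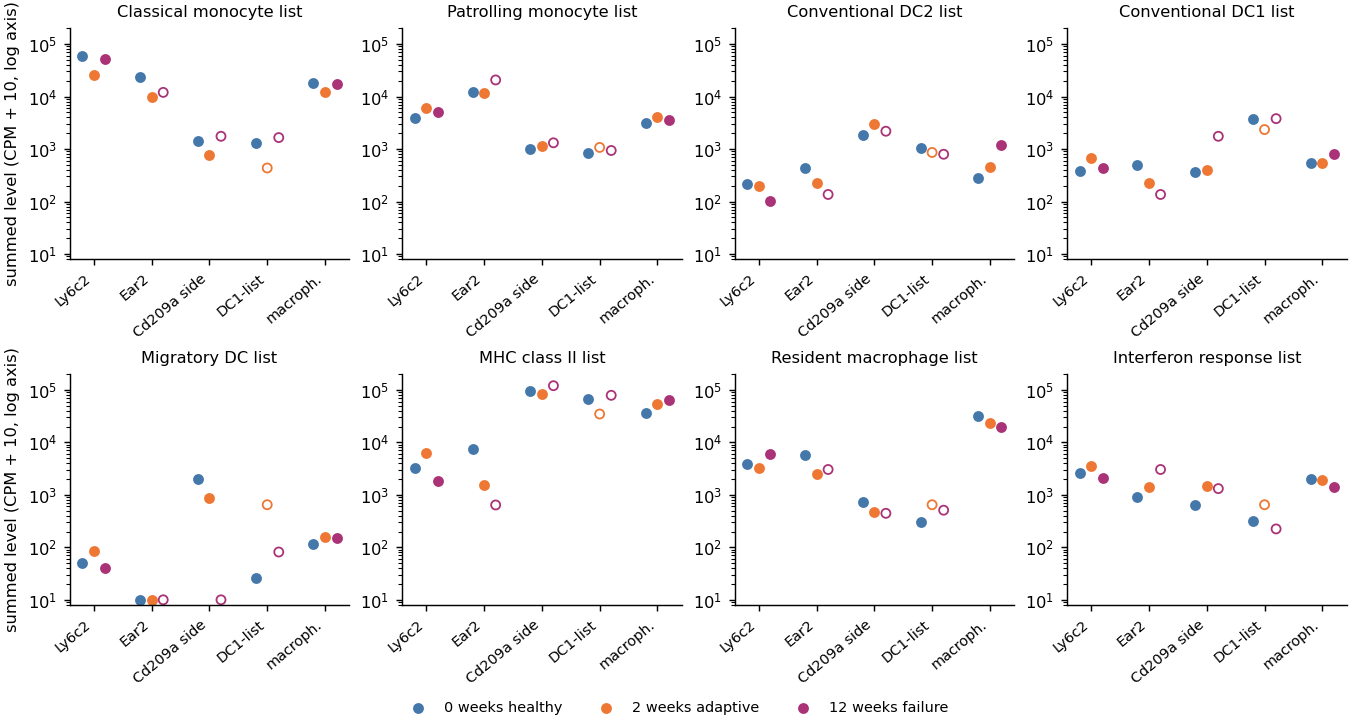
Summed level of 8 gene lists (CPM + 10, log axis) in Ly6c2 cells, Ear2 cells, Cd209a side cells, DC1-list cells and macrophages, with a point for each library and open points where the subset held under 5 cells. The classical list is highest in Ly6c2 cells in each library and the MHC class II list in the Cd209a side, and the resident macrophage list is lower in every subset of members than in macrophages.

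Set against the 917 macrophages, members were higher in most genes of the monocyte lists and lower in most of the resident macrophage list. Of 7738 genes counted, 362 were at least 2-fold higher in members (4.68%) and 746 lower (9.64%). These levels pool the 3 libraries, which were mixed unequally. The 0-week library gave 2335742 of 2598962 macrophage UMIs, but 226920 of 433961 member UMIs. The part of differences between libraries in these ratios was not tested. Of 13 classical monocyte genes, 11 were higher and 1 lower, and of 14 patrolling genes 8 were higher and 2 lower. Summed, the classical list was not higher, at 15128 CPM in members against 17360 CPM in macrophages, most of it Lyz2 in both. Of 15 adhesion and migration genes, 10 were higher and none lower. Chil3 was 313 times higher (105 to 1536), Itgal 97.0 times (39.9 to 307) and Itgb7, an integrin chain that pairs with Itga4, 38.3 times. Of 16 resident macrophage genes, 14 were lower and none higher, although macrophages were defined by the C1q genes and not by this list. Folr2, a folate receptor, and Cbr2, a carbonyl reductase, had 1 UMI each in members, with ratios of 0.00359 and 0.00395. Mrc1, the mannose receptor, had a ratio of 0.0785 (0.0464 to 0.124), Adgre1, the F4/80 antigen, 0.0883 (0.0503 to 0.144) and Csf1r, the receptor for macrophage growth factor, 0.253 (0.201 to 0.313), the mildest of these. Pf4, a chemokine also stored in platelets, stood at 27.7 CPM against 3484 CPM, and Lyve1, the hyaluronan receptor, Cd163, the haemoglobin scavenger receptor, and Mertk, a receptor for dying cells, had no UMI in any member. Lyz2 pooled over all members had a ratio of 0.813 (0.791 to 0.836). That value mixes unlike cells, since the median was 4.92 UMIs per 10000 on the Cd209a side and 284 in Ly6c2 cells. It therefore does not describe either side against macrophages.

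Markers of other lineages were measured as summed lists. The summed resident macrophage list was 1745, 2112 and 3864 CPM in members at 0, 2 and 12 weeks, against 31154, 22987 and 19719 CPM in macrophages. The fibroblast list was 886, 394 and 1385 CPM, against 1337, 419 and 1702 CPM in macrophages, and moved with the library in both. The endothelial list was 648, 521 and 493 CPM, and over the 3 libraries its level was close to that in macrophages (583 against 610 CPM). The neutrophil list was higher in members than in macrophages (152 against 27.3 CPM), and Il1r2 held 55 of its 66 UMIs in members and all 48 on the Cd209a side. The B and plasma cell list had no UMI, and the T and NK cell list stood at 52.9, 7.04 and 0 CPM. One 0-week cell held at least 5 T and NK cell UMIs and 1 held at least 5 plasmacytoid dendritic cell UMIs.

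For members as a whole, 188 of 2090 genes were at least 2-fold higher at 2 weeks than at 0 weeks (9%) and 151 were at least 2-fold lower (7.22%). Of 13 counted patrolling monocyte genes, 8 were at least 2-fold higher and none lower (median log2 of 1.26), and of 11 classical genes 2 were higher and none lower. MHC class II genes leaned the other way, with 1 of 9 at least 2-fold lower and a median of -0.77. The mix of cells moved beside these values: the 0-week members were 9 of 57 DC1-list cells and 16 of 57 Cd209a side cells, and the 2-week members 1 of 48 and 10 of 48. Inside the monocyte side without DC1-list cells, where 71 of 1033 genes were at least 2-fold higher (6.87%) and 56 lower (5.42%), 1 of 11 patrolling genes was higher and 1 lower (median 0.11), and the MHC class II median was -0.12 with none of 6 past 2-fold. On the Cd209a side, where 67 of 777 genes were at least 2-fold higher (8.62%) and 59 lower (7.59%), 1 of 8 MHC class II genes was higher, H2-DMb2, and none lower (median -0.30). The gap in both lists was thus much smaller within a side than over all members.

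Thbs1 was the leading gene at 2 weeks, and within the monocyte side too it was higher. The median mitochondrial share of UMIs on the monocyte side without DC1-list cells was 2.29%, 4.35% and 2.09% at 0, 2 and 12 weeks, and its part in the genes of this and the next paragraphs was not tested. Removing the 3 members over 10%, all at 2 weeks, left Thbs1 at a log2 ratio of 2.49 in members, against 2.55 with them. Members held 167 CPM at 0 weeks (118 to 230), 1028 CPM at 2 weeks (868 to 1208) and 308 CPM at 12 weeks (188 to 475). These were 38 UMIs in 14 cells, 146 UMIs in 23 cells and 20 UMIs in 4 cells, so no single cell made the level (at most 14 UMIs in 1 cell at 2 weeks). On the monocyte side without DC1-list cells, Thbs1 stood at 480, 1640 and 424 CPM, a ratio of 3.42 at 2 weeks (2.32 to 5.18) and no gap between 0 and 12 weeks beyond the intervals. Ly6c2 cells were higher at 2 weeks (736 and 1716 CPM). Ear2 cells outside the DC1-list cells stood at 122 and 1486 CPM, from 8 and 6 cells with 16459 and 14136 UMIs of all genes. Their 0-week level was under the floor of 3 UMIs over those cells, and no fold is given. Macrophages went from 11.1 to 338 CPM, and endothelial cells stood at 10.2 and 6.96 CPM. The endothelial level may mix transcripts of those cells with free RNA, and the part of free RNA was not tested. With each cell thinned to 1000 UMIs, 31.0% of monocyte-side cells held a Thbs1 UMI at 0 weeks and 54.8% at 2 weeks (intervals 15.3 to 50.8 and 36.0 to 72.7), which overlap; unthinned, the shares were 41.4% and 65.7%.

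Other genes that were higher at 2 weeks inside the monocyte side came from the leading genes and, for Runx3 and S100a4, from the transcription factor and adhesion lists. In those lists only 1 of 9 and 1 of 15 counted genes were at least 2-fold higher, against 6.87% of all genes counted, so each is a single pick. Runx3, a transcription factor of lymphoid and myeloid cells, went from 1 UMI in 29 cells at 0 weeks to 21 UMIs in 11 of 35 cells at 2 weeks, and back to 2 UMIs in 1 of 9 cells at 12 weeks. On the Cd209a side it stood at 103 and 304 CPM, 2.94 times higher at 2 weeks (1.16 to 7.78). Cxcr4, the receptor that holds leukocytes in the marrow, stood at 60.0, 236 and 169 CPM on the monocyte side, 3.93 times higher at 2 weeks (1.33 to 15.8), and was 7.18 times higher in macrophages (5.18 to 9.88) and 3.29 times in endothelial cells (2.20 to 5.06). The gap in Cxcr4 thus lay in each of these cell types. Trim25, a ubiquitin ligase, was 4.94 times higher (1.92 to 16.2), Ifitm6, a membrane protein of the interferon-induced family, 2.44 times (1.44 to 4.33), Plaur, the urokinase receptor, 2.29 times (1.55 to 3.46) and Slc7a11, the cystine transporter, 2.34 times (1.33 to 4.30). Cd44, the hyaluronan receptor, stood at 495, 977 and 508 CPM, a ratio of 1.97 (1.31 to 3.04). S100a4, a calcium-binding protein of motile cells, was at 1005, 2022 and 1800 CPM, 2.01 times higher at 2 weeks (1.51 to 2.71), and in macrophages 5.38 times higher. Gm26917, a non-coding transcript with a ratio of 6.65 in members (3.49 to 13.7), was at 81.8 and 86.1 CPM in endothelial cells at 0 and 2 weeks. Adgre4, an adhesion receptor, was 2.14 times higher (0.869 to 5.99), with an interval that reaches below 1.

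**Figure D5:**
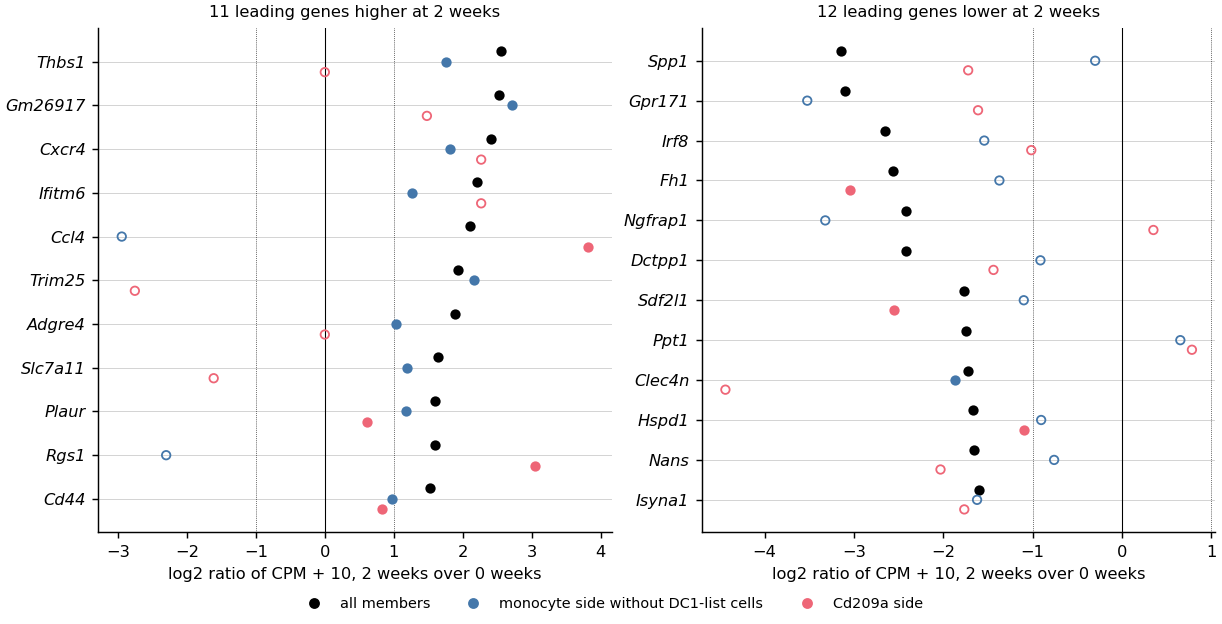
The log2 ratio of CPM + 10 between the 2-week and the 0-week library for the leading genes each way (11 higher, 12 lower), in all members, the monocyte side without DC1-list cells and the Cd209a side. Open points are genes with under 20 UMIs in that comparison, and dotted lines mark 2-fold. Thbs1, Cxcr4 and Trim25 are past 2-fold on the monocyte side. Ccl4 and Rgs1 point in opposite directions on the sides, with under 20 UMIs each on the monocyte side.

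Among interferon response genes, Irf7, a transcription factor of that response, was at 75.0, 180 and 275 CPM on the monocyte side, with a ratio of 2.40 at 2 weeks (0.839 to 8.37) that reaches below 1. Ifi27l2a stood at 310 and 1052 CPM on the Cd209a side, 3.39 times higher (2.06 to 5.68), and was 1.41 times higher on the monocyte side (1.10 to 1.83). Of 13 immediate early genes counted on the Cd209a side (10 cells at 2 weeks, 16 at 0 weeks), 4 were at least 2-fold higher at 2 weeks and none lower. Klf6 was among the 4, at 3.47 times (1.84 to 6.73). Of all genes counted on that side, 8.62% were higher and 7.59% lower. On the monocyte side none of 12 was higher and 1 was lower, where 6.87% of all genes were higher and 5.42% lower. Cd83, a surface protein of mature dendritic cells, was 1.55 times higher on the Cd209a side (1.16 to 2.05) and had a ratio of 0.428 on the monocyte side (0.248 to 0.723). These gaps between the sides were not tested.

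Genes lower at 2 weeks were of several kinds. Irf8 (273, 35.2 and 169 CPM in members) and Ppt1, a lysosomal thioesterase, were held largely by the DC1-list cells, which were picked by a list that includes both genes. Without those cells Ppt1 was higher and not lower at 2 weeks (log2 of 0.68). Spp1, osteopontin, rested on single cells, with 32 of 46 UMIs in 1 cell at 0 weeks and 43 of 45 in 1 cell at 12 weeks. Within the monocyte side, Clec4n, the lectin Dectin-2, went from 315 to 78.6 CPM, a ratio of 0.250 (0.0897 to 0.610), and Cxcl2, a neutrophil chemokine, from 1005 to 101 CPM, 0.101 (0.0441 to 0.203), with 508 CPM at 12 weeks from 3 cells. Cxcl2 in macrophages had a ratio of 0.987, and Chil3 on the monocyte side one of 0.442 (0.304 to 0.637). Sdf2l1, a chaperone of the endoplasmic reticulum, and Fh1, fumarate hydratase, were lower on the Cd209a side, from 40 to 3 UMIs (0.152, 0.0302 to 0.479) and from 23 to 1 UMI. Gpr171, a receptor for a neuropeptide, went from 31 UMIs to 1 UMI over all members, and Hspd1, a mitochondrial chaperone, from 357 to 106 CPM. Of 9 inflammatory cytokine genes counted on the monocyte side, 4 were at least 2-fold lower and none higher, where 5.42% of all genes were lower. The list did not lean this way elsewhere. On the Cd209a side 2 of 11 were lower and 2 higher, and over all members 3 of 14 were lower and 3 higher.

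Lyz2 was lower at 2 weeks in each kind of cell measured. On the monocyte side without DC1-list cells the ratio was 0.523 (0.490 to 0.559), in macrophages 0.649, and in endothelial cells, which do not make lysozyme, 0.127 (92.3 to 11.7 CPM). The level in endothelial cells thus differed between the libraries too, and the part of free RNA in the other values was not tested. At 12 weeks Lyz2 was at 38609 CPM on the monocyte side and 145 CPM in endothelial cells.

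At 12 weeks the members were 13 cells, and 9 of these were monocyte-side cells. Ly6c2 cells made up 5 of them and Ear2 cells 2. Their summed MHC class II list was 1483 CPM, against 8337 and 7661 CPM on the monocyte side without DC1-list cells at 0 and 2 weeks, and the 1 Cd209a side cell stood at 120000 CPM. Fn1, fibronectin, was at 83.7, 225 and 385 CPM over all members at 0, 2 and 12 weeks, with 19, 32 and 25 UMIs in 11, 13 and 7 cells. It is a gene of the classical monocyte list, and Ly6c2 cells were 15.8%, 35.4% and 38.5% of members at these times. The part of this mix in the Fn1 levels was not tested. The intervals of the 2-week and 12-week levels of Fn1 overlapped (154 to 318 and 249 to 568).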

How the data were processed

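The deposited files hold UMI counts per gene and cell barcode, 1 matrix for each of 3 libraries, not normalized. Per the labels and the study's methods, the authors built the libraries with Chromium Single Cell 3' v2, sequenced them on an Illumina HiSeq and counted with Cell Ranger (2.0.0 with mm10 in the submitters' processing notes). Cells of 200 genes or more entered, and their UMIs were summed per group and divided by the summed total (CPM), with exact Poisson intervals for levels, conditional binomial intervals for ratios and Clopper-Pearson intervals for shares. A gene was called at 2-fold with 10 CPM added and at least 20 UMIs. Leading genes were the 12 each way by log2 ratio with at least 20 UMIs in at least 5 cells of the higher group and at least 2 times the level of the whole library there, leaving out rule, mitochondrial, ribosomal and haemoglobin genes; a few genes are not reported here. The members and gene lists were chosen with earlier results of these data known. Ties of cells to sides, doublets (Scrublet called no member), depth thinning to 1000 UMIs and 50-base transcript overlap (GENCODE M21) used scanpy 1.11.5, pandas 2.3.3, scipy 1.17.1 and numpy 2.4.6 under Python 3.11.15, and the ratio code was tested on simulated data. Gene coordinates come from GENCODE M21, where 27645 of 27998 gene identifiers matched.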

Additional observations from a re-analysis of the deposited data

Results flagged for a closer look

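Ccl4, a chemokine that attracts leukocytes, had pooled ratios in opposite directions on the sides, resting largely on 1 cell on the Cd209a side and on few UMIs on the monocyte side. On the Cd209a side it was 138 CPM at 0 weeks (12 UMIs in 6 cells) and 2080 CPM at 2 weeks (89 UMIs, of which 83 were in 1 cell), a ratio of 15.1 (8.22 to 30.3). On the monocyte side without DC1-list cells it went from 16 UMIs to 2 UMIs, a ratio of 0.0936 (0.0104 to 0.398).

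Rgs1, a regulator of G protein signalling at chemokine receptors, also had ratios in opposite directions, and it too was under 20 UMIs on the monocyte side. It had 11 UMIs in 4 Cd209a side cells at 0 weeks and 48 UMIs in 5 cells at 2 weeks (at most 21 in 1 cell), a ratio of 8.87 (4.54 to 18.9), and went from 10 UMIs to 2 UMIs on the monocyte side, a ratio of 0.150 (0.0160 to 0.703). The difference between the sides was not tested for either gene, since each phase was 1 library.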

How the results depend on the processing

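No paired analysis was possible because each phase was 1 library, and for the same reason no library could be left out within a phase. Removing cells with any UMI of another lineage gave 1.10% of cells at 0 weeks and 0.758% at 12 weeks, a Cd209a side share of 0% at 12 weeks and 87 genes lower at 2 weeks. Thinning each cell to 1000 UMIs (4 of 48 members at 2 weeks were shallower) gave 0.822% of cells and 4.10% of leukocytes at 0 weeks and a Cd209a side share of 0% at 12 weeks, while members stayed 27.0% and 22.2% of leukocytes at 2 and 12 weeks. With 50 CPM added, 83 genes were higher and 55 lower at 2 weeks, 84 higher and 188 lower on the Cd209a side, and 145 higher and 189 lower in members than in macrophages. With at least 50 UMIs per gene, 73 were higher and 36 lower at 2 weeks, and 64 and 132 on the Cd209a side. Without the DC1-list cells, an alternative chosen after seeing the data, 135 were higher and 89 lower at 2 weeks, and 1 of 72 leading-gene results reversed (Ppt1, log2 of 0.68) while 5 moved. With 50 CPM added 13 of the 72 moved, without other-lineage UMIs 3, with each cell weighted equally 2 (Ccl4 and Rgs1), and with any Cd209a UMI setting the side 2 of 24, all in the same direction; stricter gene, mitochondrial, doublet and marker limits and 50 UMIs per gene moved none. The 12-week library had 13 members, so its shares and levels are the least precise.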
